A study of Mus musculus with 24 samples.

Results

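The 6 genes described here encode the positive limb of the mouse circadian clock and the nuclear receptors that act on it: Arntl (also called Bmal1), Clock, Npas2, Nr1d1 (REV-ERBα), Nr1d2 (REV-ERBβ) and Rora (RORα). They were taken by gene name, 6 of the 43629 gene identifiers listed, and their liver mRNA levels are followed over 6 times of day at 2 ages. Old mice were about 19 months old and young mice about 4 months old, and all were wild-type C57BL/6, an inbred laboratory strain. Livers were collected every 4 h from ZT2 to ZT22, where zeitgeber time (ZT) counts the hours since the lights came on, and 2 replicate libraries per age and time made 12 per age and 24 in all. The labels do not say whether replicates were separate animals, what a replicate number stands for or the sex of the mice. Each p therefore rests on these samples alone, and the spread between replicates may be technical.

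In the clock of mammalian cells, BMAL1 pairs with CLOCK or with its close relative NPAS2, and the pair binds E-box sequences and activates the Per and Cry genes, whose proteins then inhibit the pair. The same pair activates Nr1d1 and Nr1d2, whose products repress transcription at ROR elements, and Arntl and Npas2 carry such elements. ROR proteins activate transcription through the same elements, so Arntl is under opposed control by REV-ERB and ROR, which in liver also reaches genes of lipid and bile acid metabolism.

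Because ROR elements link the receptors to the activators, the promoter windows of the 6 genes were searched for their letters. RefSeq (GRCm38.p6) gave 9 start sites for the 6 genes, with 250 bases before and 50 bases after each. TAGGTCA (a core of the ROR element), TGGGTCA (a variant of it), AGGTCA (the core receptor site, which TAGGTCA contains), CACGTG (an E-box) and TTATGNAA (a D-box) were searched on both strands. The windows of Arntl, Nr1d2 and Clock held matches. The Arntl site (chr7:113207529-113207558, plus strand) holds TAGGTCA, the Nr1d2 site (chr14:18239166-18239195, minus strand) AGGTCA and the Clock site (chr5:76303604-76303633, minus strand) the reverse complement of AGGTCA. They are shown 5′ to 3′ along each gene's strand with the match in capitals.
Arntl: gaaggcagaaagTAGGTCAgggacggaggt
Nr1d2: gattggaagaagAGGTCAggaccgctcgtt
Clock: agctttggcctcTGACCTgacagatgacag
Counted from a start site, the first base of the match lay at position 31 in Arntl, -77 in Nr1d2 and -119 in Clock. Among 32807 RefSeq promoter windows of 300 bases, 2.61% held TAGGTCA, 3.98% held TGGGTCA, 16.3% held AGGTCA, 7.15% held CACGTG and 3.39% held TTATGNAA. No other match to these letters lay in the windows of the 6 genes.

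Mapped depth, which the highest coverage per FPKM of each library gives, equalled 8.70 to 12.3 M reads of 50 bases per library in old and 9.68 to 13.7 M in young. Levels below are scaled TPM, that is, the deposited TPM (transcript abundance relative to the library total) divided by a median-of-ratios factor for each library. The 12234 genes that averaged 1 scaled TPM or more were tested, among them 5 of the 6 members, all but Npas2. Summed levels of 5 hepatocyte markers lay between 81930 and 110500 TPM in old and between 77970 and 108000 TPM in young, so the labelled tissue had its defining transcripts. Summed levels of 2 plasma cell markers were 77.4 to 408 TPM in old and 7.89 to 43.1 TPM in young, and the part of this in the age comparisons was not tested. Mitochondrial transcripts made up 3.42% of TPM in old ZT14 replicate 1 and 8.74% in old ZT14 replicate 2, both below the 10.7% to 17.1% of the other 22 libraries. Young ZT18 replicate 2 held 3219 TPM of pancreatic acinar enzyme transcripts, against at most 11.3 TPM in any old library and 4.34 TPM in any other young one. Old ZT10 replicate 2 had the highest summed markers of neutrophils (121 TPM), Kupffer cells (541) and T and NK cells (7.94). The next highest old libraries had 104, 348 and 7.06 TPM. The part of this in the age comparisons at ZT10 was not tested. These are bulk tissue samples, in which fewer cells of a type and less RNA per cell cannot be told apart.

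Arntl, the gene of the obligate activator BMAL1, lies on the plus strand at chr7:113207465-113314122 (GRCm38). In old livers it had 14.6 and 13.7 scaled TPM at ZT2, 1.30 and 1.19 at ZT6, 0 and 0.311 at ZT10, 0.235 and 1.22 at ZT14, 8.22 and 8.53 at ZT18, and 11.9 and 13.7 at ZT22. In young livers it had 13.2 and 13.6 scaled TPM at ZT2, 1.96 and 3.09 at ZT6, 0 and 0.0831 at ZT10, 0.833 and 0.435 at ZT14, 6.21 and 9.90 at ZT18, and 10.6 and 13.8 at ZT22. The gene was thus high late in the night and early in the day and near 0 late in the day at both ages, and all libraries of ZT18, ZT22 and ZT2 were above all libraries of the other 3 times. At ZT2 both old libraries were above both young ones, at ZT6 both were below, and at the other 4 times the ages overlapped. In reads, ZT10 held 0 and 6 in old and 0 and 2 in young, against 269 and 271 in old and 279 and 245 in young at ZT2. A count of 3 reads, the limit that a count of 0 allows, stood for 0.118 to 0.179 scaled TPM in old libraries and 0.119 to 0.178 in young ones, for counting error only. A fold between peak and trough is therefore not given.

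A 24 h cosine fitted to log2(scaled TPM + 0.5) gave Arntl an amplitude, meaning the fitted peak minus trough, of 4.996 ± 0.41 (SE) in old and 4.90 ± 0.41 in young on the log2 scale. It passed the threshold, which is 0.05 for p adjusted by Benjamini and Hochberg over all tested genes, at both ages (limma F test, adjusted p = 2.47e-07 in old and 3.61e-07 in young). Over all genes, 8.97% passed this test in old and 10.8% in young, and of the 5 members tested 4 passed in old and 4 in young, these being Arntl, Clock, Nr1d1 and Nr1d2. The pseudocount of 0.5 bounds the amplitude of a gene whose trough is near 0, and with 0.1 in its place the amplitudes of Arntl were 6.43 in old and 6.47 in young. The fitted peak fell at ZT22.6 ± 0.31 h (SE) in old and ZT22.98 ± 0.32 h in young.

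**Figure D1:**
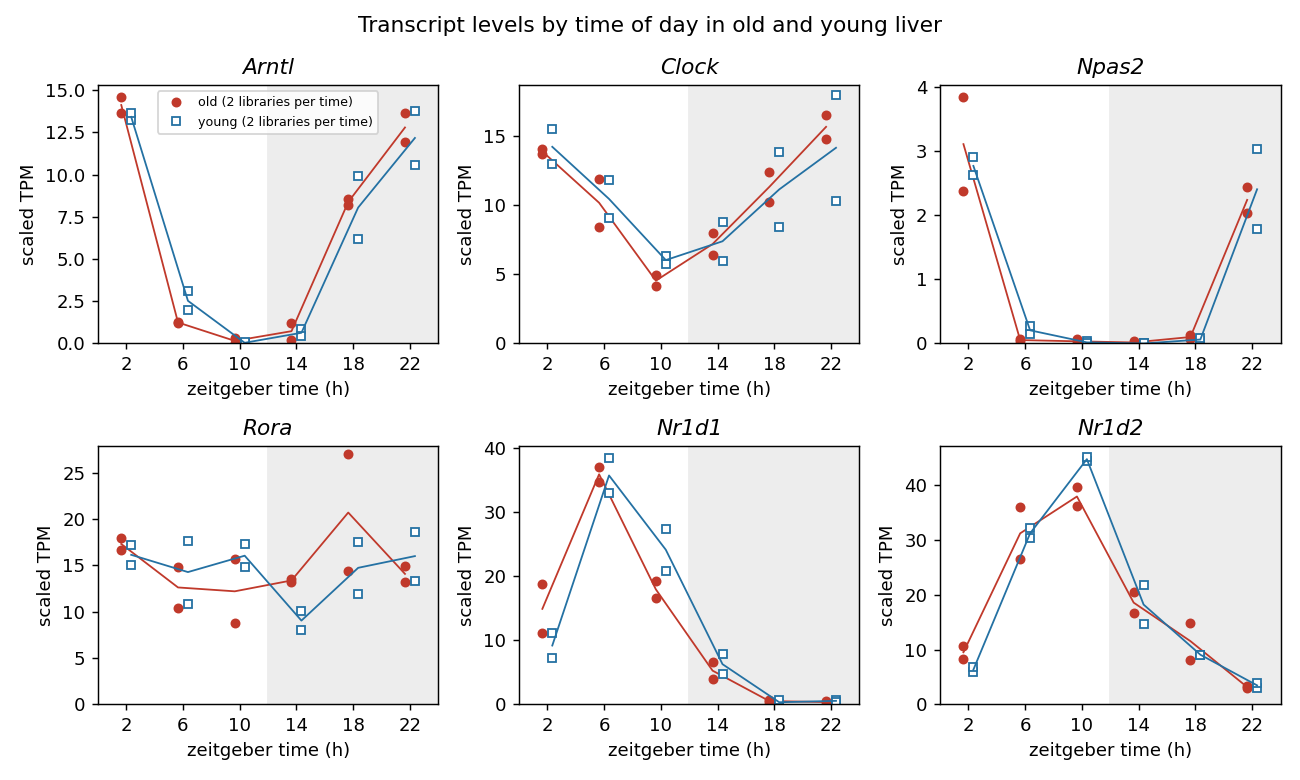
Scaled TPM of the 6 genes against zeitgeber time in hours, with 1 point per library (filled circles for old, open squares for young, drawn slightly apart), lines through the means of the 2 libraries of each age and time, and grey from ZT12 to ZT24. By the means of the 2 libraries, Arntl and Clock were lowest at ZT10 and Npas2 at ZT14, Nr1d1 was highest at ZT6 (up to 38.5 TPM) and Nr1d2 at ZT10 (up to 45.1 TPM), and Rora had no fitted rhythm that passed the threshold.

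Clock encodes the partner of BMAL1, a protein with histone acetyltransferase activity, and lies on the minus strand at chr5:76212177-76304548. It varied much less than Arntl. In old livers it had 13.7 and 14.1 scaled TPM at ZT2, 8.44 and 11.9 at ZT6, 4.14 and 4.96 at ZT10, 6.38 and 8.02 at ZT14, 10.3 and 12.4 at ZT18, and 14.8 and 16.6 at ZT22. In young livers it had 13.0 and 15.5 scaled TPM at ZT2, 9.07 and 11.9 at ZT6, 5.74 and 6.33 at ZT10, 5.98 and 8.82 at ZT14, 8.45 and 13.9 at ZT18, and 10.3 and 18.02 at ZT22. Both old libraries were below both young ones at ZT10, and the ages overlapped at the other 5 times. The fitted amplitude was 1.54 ± 0.23 (SE) in old and 1.18 ± 0.23 in young on the log2 scale (limma F test, adjusted p = 3.86e-04 in old and 0.00470 in young), with peaks at ZT23.09 ± 0.56 h (SE) in old and ZT23.66 ± 0.73 h in young. With the deposited TPM unscaled the young call was lost, at an amplitude of 1.09 and an adjusted p of 0.0594 by limma, and without ZT10 at an amplitude of 1.01 and an adjusted p of 0.0651. A test that assumes no curve, of any variation over the 6 times, passed for Clock in old (adjusted p = 0.00993 by limma) and missed the threshold in young (adjusted p = 0.0567). By that test 5.66% of all genes were called in old and 6.87% in young, and of the members 4 were called in old and 3 in young. Leaving out 1 library at a time gave 479 to 711 genes in old against 692, and 494 to 938 in young against 840. The old call of Clock was lost without old ZT10 replicate 1 (adjusted p = 0.0592 by limma), and a young call was gained without young ZT18 replicate 1, ZT18 replicate 2 or ZT22 replicate 1 (adjusted p = 0.0386, 0.0454 and 0.0225).

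Npas2, the paralog of Clock that can take its place beside BMAL1, lies on the plus strand at chr1:39193731-39363236 and was the lowest of the 6. In old livers it had 2.38 and 3.84 scaled TPM at ZT2, 0.0658 and 0.0409 at ZT6, 0.0678 and 0 at ZT10, 0 and 0.0323 at ZT14, 0.127 and 0.0745 at ZT18, and 2.04 and 2.44 at ZT22. In young livers it had 2.91 and 2.63 scaled TPM at ZT2, 0.142 and 0.269 at ZT6, 0.0348 and 0 at ZT10, 0 and 0 at ZT14, 0.0384 and 0.0854 at ZT18, and 1.79 and 3.03 at ZT22. Its transcripts were present almost only at ZT22 and ZT2. From ZT10 to ZT18 no library held more than 4 reads of it, so levels at these times were at or near the 3-read limit of 0.0806 to 0.115 scaled TPM. At ZT6 the old libraries held 2 and 1 reads and the young ones 4 and 8, and the ages overlapped at the other 5 times. At ZT18, where Arntl was back at 6.21 TPM or more in every library, Npas2 was still at 0.127 TPM or less. Since its mean of 0.918 TPM was below the limit for the fit across genes, it was tested alone. Permuting times within an age gave a p of 0.00051 for its 24 h rhythm in old, with an amplitude of 2.97 on the log2 scale and a peak at ZT0.08, and 6e-05 in young, with an amplitude of 2.997 and a peak at ZT0.38 (100000 resamples each). Exchanging ages within each time in all 46656 arrangements, an exact permutation test (two-sided), gave an age difference over the day of -0.02 on the log2 scale with p = 0.833.

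Nr1d1 encodes REV-ERBα, a repressor that binds haem and recruits a co-repressor complex, and lies on the minus strand at chr11:98767932-98775333. In old livers it had 11.1 and 18.7 scaled TPM at ZT2, 34.7 and 37.1 at ZT6, 19.3 and 16.6 at ZT10, 3.90 and 6.60 at ZT14, 0.645 and 0.348 at ZT18, and 0.570 and 0.112 at ZT22. In young livers it had 7.25 and 11.1 scaled TPM at ZT2, 38.5 and 33.0 at ZT6, 27.4 and 20.9 at ZT10, 4.70 and 7.81 at ZT14, 0 and 0.620 at ZT18, and 0.696 and 0.359 at ZT22. ZT6 was the highest time in both ages, and all 8 libraries of ZT18 and ZT22 were below 1 TPM and held at most 14 reads. At ZT10 both old libraries were below both young ones, and the ages overlapped at the other 5 times. The fitted amplitude was 5.73 ± 0.46 (SE) in old and 5.92 ± 0.46 in young on the log2 scale, with peaks at ZT7.21 ± 0.31 h in old and ZT7.56 ± 0.30 h in young (limma F test, adjusted p = 2.37e-07 in old and 1.53e-07 in young). Among the 12234 genes tested, this amplitude ranked 10 in old and 3 in young, and that of Arntl ranked 15 in old and 10 in young. The 3′ end of Nr1d1 overlaps that of Thra on the opposite strand. The libraries were strand-specific, but the sources used here do not say whether counting used the strand, so reads in the overlap may belong to either gene.

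Nr1d2 encodes REV-ERBβ, which acts on the same elements, and lies on the minus strand at chr14:18204054-18239127. In old livers it had 8.33 and 10.7 scaled TPM at ZT2, 26.5 and 36.0 at ZT6, 36.2 and 39.7 at ZT10, 16.6 and 20.5 at ZT14, 8.14 and 14.9 at ZT18, and 3.04 and 3.25 at ZT22. In young livers it had 5.87 and 6.75 scaled TPM at ZT2, 30.4 and 32.1 at ZT6, 44.4 and 45.1 at ZT10, 14.6 and 21.8 at ZT14, 9.05 and 9.05 at ZT18, and 3.03 and 3.87 at ZT22. Its highest time was ZT10 and its lowest ZT22 at both ages, and unlike Nr1d1 it never fell below 3.03 TPM. Both old libraries were above both young ones at ZT2 and below both at ZT10, with overlap at the other 4 times. The fitted amplitude was 3.07 ± 0.31 (SE) in old and 3.41 ± 0.31 in young on the log2 scale, with peaks at ZT9.64 ± 0.39 h in old and ZT9.81 ± 0.35 h in young (limma F test, adjusted p = 6.64e-06 in old and 1.54e-06 in young). This amplitude ranked 58 in old and 44 in young among the genes tested.

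**Figure D2:**
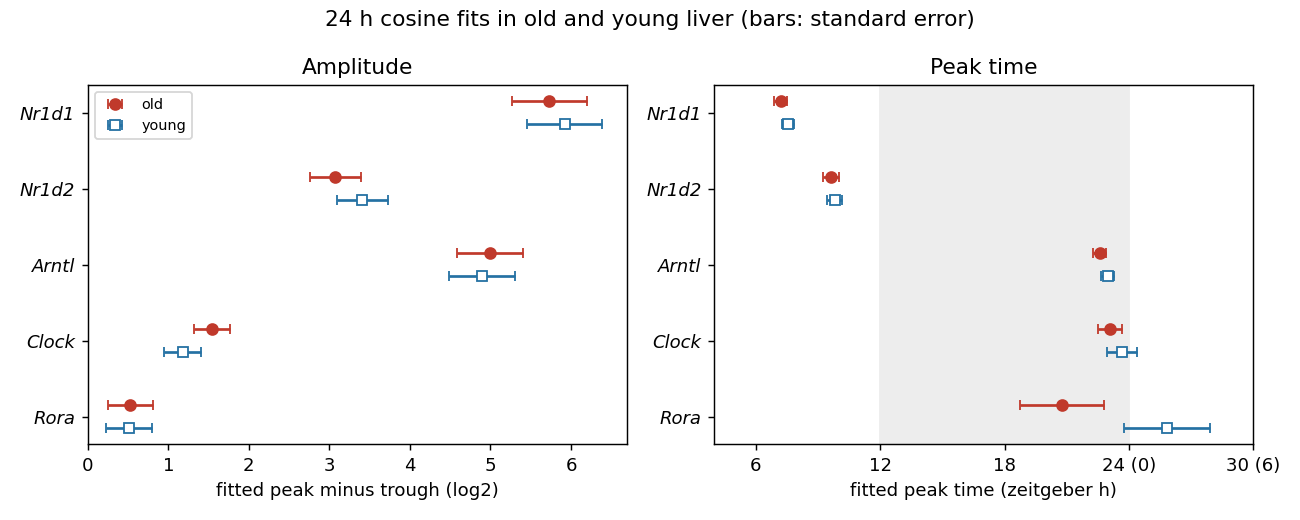
Fitted amplitude (peak minus trough, log2, left) and fitted peak time (zeitgeber hours, right, running past 24 h for Rora in young) of the 5 members tested, for old (filled circles) and young (open squares) with standard errors. Nr1d1 and Arntl had the largest amplitudes, at 5.73 and 4.996 in old and 5.92 and 4.90 in young. Nr1d1 peaked at ZT7.21 in old and ZT7.56 in young, and Arntl at ZT22.6 in old and ZT22.98 in young. The peak times of Rora, whose rhythm did not pass the threshold, had standard errors of 2.03 h in old and 2.09 h in young.

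Rora encodes RORα, an activator at the elements that REV-ERB proteins repress, and lies on the plus strand at chr9:68653786-69388246. In old livers it had 16.6 and 18 scaled TPM at ZT2, 10.4 and 14.8 at ZT6, 8.74 and 15.7 at ZT10, 13.3 and 13.5 at ZT14, 14.4 and 27.0 at ZT18, and 14.97 and 13.2 at ZT22. In young livers it had 15.1 and 17.2 scaled TPM at ZT2, 10.9 and 17.7 at ZT6, 14.8 and 17.3 at ZT10, 8.04 and 10.03 at ZT14, 11.9 and 17.6 at ZT18, and 13.4 and 18.7 at ZT22. Both old libraries were above both young ones at ZT14, and the ages overlapped at the other 5 times. The fitted amplitude was 0.53 ± 0.28 (SE) in old and 0.51 ± 0.28 in young on the log2 scale, and neither passed the threshold (limma F test, adjusted p = 0.472 in old and 0.451 in young). The test without a curve did not pass either (adjusted p = 0.636 in old and 0.512 in young by limma). The highest library, old ZT18 replicate 2 at 27.0 TPM, stood apart from its partner at 14.4 TPM.

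The deposited measures of Rora were not alike in all libraries. Its ratio of coverage to FPKM, taken against the largest such ratio in the same library, was 0.0289 to 0.0326 in 4 libraries and 0.111 to 0.137 in the other 20. The 4 were old ZT6 replicate 1, old ZT10 replicate 1, old ZT22 replicate 2 and young ZT22 replicate 1. In these the deposited coverage of Rora was 0.0881 to 0.141 reads per base, against 0.324 to 0.991 in the other 20, while the scaled TPM was 8.74 to 13.4 against 8.04 to 27.0. The largest ratio among the 20 was 4.20 times the largest among the 4, and the annotated transcript Rora-201 (10878 bases, GENCODE M21) is 4.20 times as long as Rora-202 (2591 bases). How transcripts of different length entered the deposited values was not tested. The age difference of Rora over the day was 0.06 on the log2 scale by TPM, -0.17 by coverage scaled in the same way and 0.14 by TPM without the 4 libraries, and it passed the threshold in none of these fits (adjusted p = 0.940, 0.854 and 0.896 by limma). The rhythm of Rora stayed below the threshold in these fits at both ages, with adjusted p between 0.430 and 0.810 by limma.

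**Figure D3:**
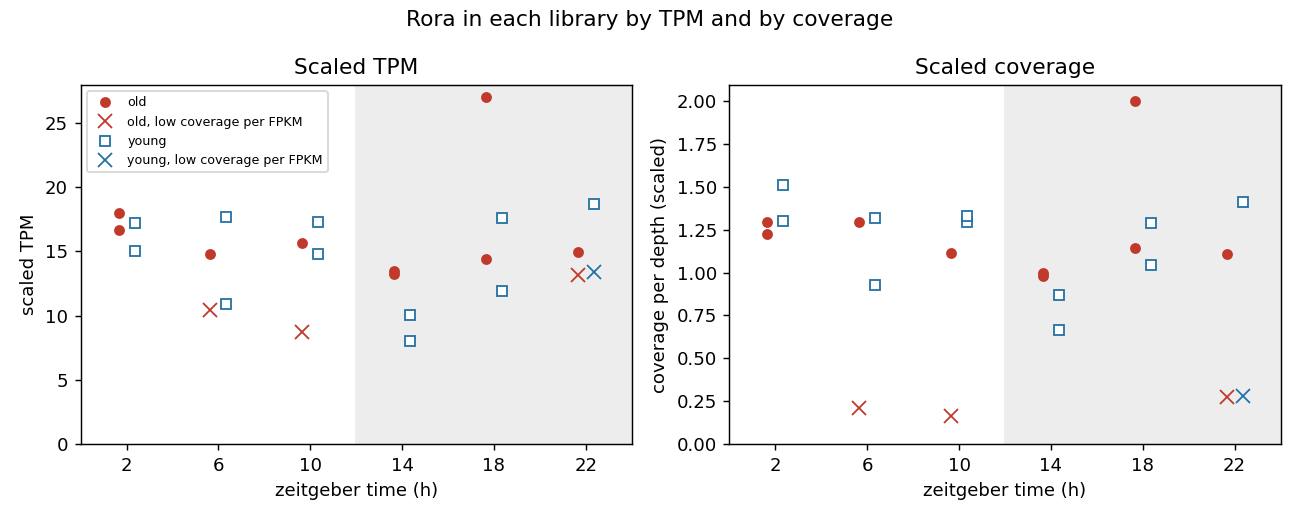
Rora against zeitgeber time in hours as scaled TPM (left) and as scaled coverage (right), with 1 point per library, filled circles for old, open squares for young and crosses for the 4 libraries of low coverage per FPKM. By coverage the 4 crosses lie between 0.163 and 0.279 and the other 20 points between 0.668 and 2.001, whereas by TPM the crosses lie among the rest.

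Relatives of these genes were also followed. Thra, the thyroid hormone receptor that shares its 3′ end region with Nr1d1, averaged 5.77 ± 2.36 scaled TPM in old and 5.56 ± 1.77 in young (SD, n = 12 each). Its amplitude was 1.11 ± 0.25 (SE) in old and 1.11 ± 0.25 in young with peaks at ZT2.54 in old and ZT1.81 in young (limma F test, adjusted p = 0.0157 in old and 0.0151 in young), calls that were lost without old ZT2 replicate 1 in old (adjusted p = 0.0578) and without either young ZT14 library in young (adjusted p = 0.0616 and 0.0581). Arntl2, the paralog of Arntl, had a listed value of 0 in 10 of the old libraries and in 5 of the young, and reached at most 0.151 TPM in old and 0.235 TPM in young. Rorb, the ROR of neural tissue, was listed at 0 in all 24.

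Averaged over the 12 libraries of an age, Nr1d2 had 18.7 ± 13.1 scaled TPM in old and 18.8 ± 15.6 in young (SD). Rora followed with 15.1 ± 4.52 in old and 14.4 ± 3.51 in young, then Nr1d1 with 12.5 ± 13.1 in old and 12.7 ± 13.8 in young. Clock had 10.5 ± 4.07 scaled TPM in old and 10.6 ± 3.94 in young, Arntl had 6.24 ± 6.08 in old and 6.14 ± 5.72 in young, and Npas2 had 0.926 ± 1.36 in old and 0.910 ± 1.28 in young. The order of the 6 means was the same at both ages, but each gap between neighbours was smaller than the larger of their SDs, which hold the variation over the day.

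Set against each other within a library, the receptor and its target changed places over the day. Where a gene was near 0, the 0.5 added before the log bounds the differences below and leaves library scaling in them. The difference of log2(scaled TPM + 0.5) between Nr1d1 and Arntl averaged 0.03 in old and -0.55 in young at ZT2, 4.38 in old and 3.60 in young at ZT6, and 4.85 in old and 5.50 in young at ZT10. It averaged 2.31 in old and 2.56 in young at ZT14, -3.17 in old and -3.48 in young at ZT18, and -4.04 in old and -3.63 in young at ZT22. Nr1d1 exceeded Arntl in all 12 libraries of ZT6, ZT10 and ZT14 and was below it in all 8 of ZT18 and ZT22. Only at ZT2 did libraries fall on both sides, with -0.38 and 0.44 in old and -0.82 and -0.28 in young. The 2 REV-ERB genes also shifted against each other. Nr1d1 minus Nr1d2 averaged 0.59 in old and 0.48 in young at ZT2, 0.22 in old and 0.19 in young at ZT6, -1.06 in old and -0.89 in young at ZT10, and -3.55 in old and -3.67 in young at ZT18. Thus Nr1d1 was slightly above its paralog in all 8 libraries of ZT2 and ZT6 and below it in the other 16.

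**Figure D4:**
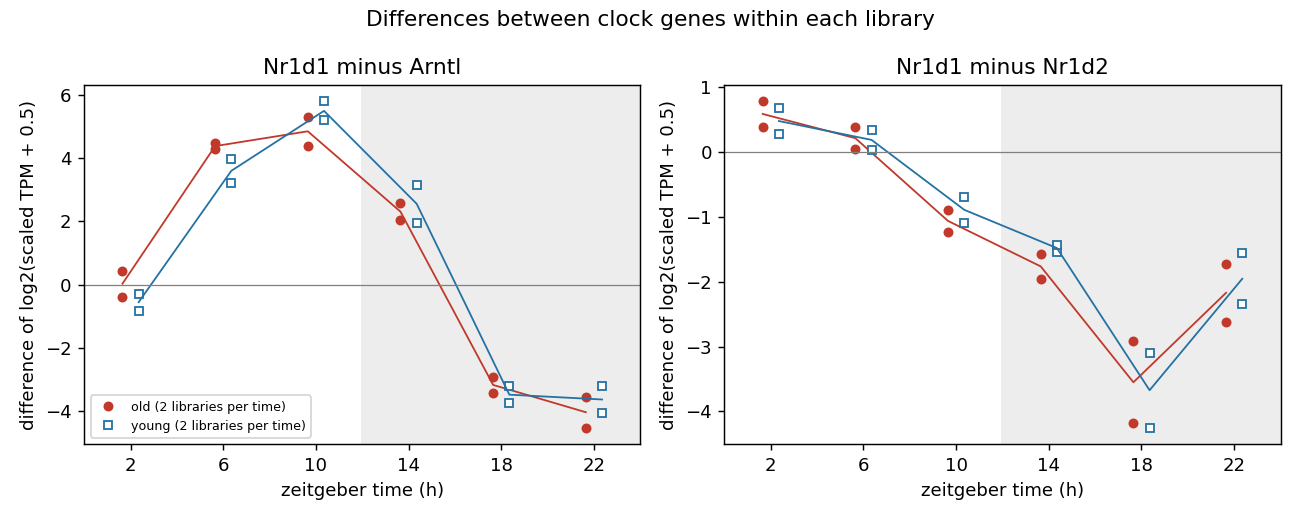
Differences of log2(scaled TPM + 0.5) between Nr1d1 and Arntl (left) and between Nr1d1 and Nr1d2 (right) within each library, against zeitgeber time in hours, with 1 point per library (filled circles for old, open squares for young) and lines through the means of the 2 libraries. The left difference reached 4.85 in old and 5.50 in young at ZT10 and was negative in all libraries of ZT18 and ZT22.

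Across the 24 libraries, the correlation of log2(scaled TPM + 0.5) between members was 0.89 for Arntl and Clock (Pearson r), 0.77 for Arntl and Npas2 and 0.76 for Nr1d1 and Nr1d2. It was -0.85 for Arntl and Nr1d2 and -0.57 for Arntl and Nr1d1. Rora correlated with no other member beyond 0.54, its value with Clock. The values share libraries, depth and times of day, so these are descriptions. Among named genes averaging 5 TPM or more (7174 for each member but Npas2), the most alike to Arntl were Lgalsl (r = 0.97), Tubb2a and Trim2 (both 0.96). The most alike to Clock were Mreg (0.95), Gldc (0.93) and Ppp1r3c (0.91), and to Npas2 Clpx (0.86), Pid1 and Crip2 (both 0.84). For Nr1d1 they were Soat2 (0.88), Bcar1 (0.86) and Rgs16 (0.85), for Nr1d2 Rgs16 (0.94), Dbp (0.89) and Pla2g12a (0.89), and for Rora Sntb1 (0.85), Ipmk (0.82) and Thrb (0.81).

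Whether age changes the clock genes is the question the sampling of both ages addresses. In the limma fit over age and time groups, 0 of the 5 members tested passed the threshold for an age difference over the day, and their smallest unadjusted p was 0.426. Of all genes, 1.14% were called higher in old and 0.499% lower. The member differences, old minus young, were -0.05 ± 0.14 (SE) for Arntl, -0.04 ± 0.11 for Clock, 0.06 ± 0.13 for Rora, 0.02 ± 0.16 for Nr1d1 and 0.08 ± 0.10 for Nr1d2 on the log2 scale, with a median of -0.01 over all genes. Each of these values changed sign under at least 1 other setting, so no direction is drawn from them. None of the 5 passed the test of an age difference that varies over the times either (smallest unadjusted p = 0.288, 0.0163% of all genes called). That share stands for 2 genes, and leaving out 1 library at a time gave 0 to 36.

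At single times, 0 of 30 tests of a member at a time passed the threshold by limma, and 2 had an unadjusted p under 0.05. Arntl at ZT6 had 1.30 and 1.19 scaled TPM in old against 1.96 and 3.09 in young, a difference of -0.77 ± 0.35 (SE) on the log2 scale (limma, unadjusted p = 0.0450, adjusted p = 1). Nr1d2 at ZT2 had 8.33 and 10.7 scaled TPM in old against 5.87 and 6.75 in young, a difference of 0.55 ± 0.25 (limma, unadjusted p = 0.0464, adjusted p = 1). Of all genes, the share called higher and lower in old was 0% and 0% at ZT2 and at ZT6, 0.45% and 0.0817% at ZT10, 0.0327% and 0.00817% at ZT14, 0.0163% and 0.00817% at ZT18, and 0.00817% and 0% at ZT22. These shares rest on few genes and on single libraries. Leaving out 1 library at a time gave 0 to 6 genes at ZT2, 0 to 27 at ZT6 (27 without old ZT6 replicate 1), 6 to 64 at ZT10 (6 without young ZT10 replicate 2), 0 to 53 at ZT14 (53 without old ZT14 replicate 2), 2 to 36 at ZT18 (36 without young ZT18 replicate 1) and 1 to 6 at ZT22, against 0, 0, 65, 5, 3 and 1 genes with all libraries. Of the 36 pairings of a gene and a time, the old libraries were both above the young ones in 3, both below in 5, and overlapped them in 28. Those above were Arntl and Nr1d2 at ZT2, where 16.5% of all genes stood so, and Rora at ZT14, where 15.1% did. Those below were Arntl and Npas2 at ZT6 (14.1% of all genes), and Clock, Nr1d1 and Nr1d2 at ZT10 (19.8% of all genes).

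The rhythms were set against each other by a test of the difference of the cosine and sine terms between ages. By limma, 0 of 5 members and 0% of all genes passed the threshold, the smallest unadjusted p among the members was 0.293, and 428 genes had an unadjusted p under 0.05. The amplitude differed by 0.10 in Arntl, old minus young (95% interval -1.09 to 1.29), by 0.36 in Clock (-0.30 to 1.03), by -0.19 in Nr1d1 (-1.55 to 1.17) and by -0.34 in Nr1d2 (-1.26 to 0.58), all on the log2 scale. The fitted peak of old minus that of young was -0.38 h in Arntl (-1.30 to 0.54), -0.57 h in Clock (-2.48 to 1.35), -0.35 h in Nr1d1 (-1.24 to 0.54) and -0.17 h in Nr1d2 (-1.26 to 0.92). All 4 intervals hold 0, and a shift of 1 h earlier lay within each of them. Over the 669 genes called rhythmic at both ages the median peak difference was -0.07 h, and 53.4% had the earlier peak in old. For Rora, without a called rhythm at either age, the peak difference of -5.05 h had an interval of -11.1 to 0.996 h.

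The genes through which the members act were followed in lists. The first list held genes of the negative limb and the PAR bZIP family, and also others such as Wee1, Nampt, Usp2 and Nfil3. They were listed as targets of CLOCK and BMAL1 at E-boxes, and binding was not tested here. Of its 14 tested genes (15 listed), 11 were called rhythmic in old and 13 in young, against 8.97% and 10.8% of all genes. Their median amplitudes were 3.03 in old and 2.84 in young, against 0.39 in old and 0.44 in young over all genes. The list genes with the smallest p in old were Cry1 and Per2, which inhibit the activators, Wee1, a cell cycle kinase, and Nampt, an enzyme of NAD synthesis. Their fitted peaks were ZT19.73 in old and ZT20.20 in young for Cry1, and ZT15.03 in old and ZT15.39 in young for Per2. Wee1 peaked at ZT13.29 in old and ZT13.20 in young, and Nampt at ZT14.52 in old and ZT14.54 in young. Hlf, a PAR bZIP activator, was called in young, with an amplitude of 1.35 ± 0.30 (SE), and not in old, with 0.25 ± 0.30 (limma, adjusted p = 0.879 in old and 0.0130 in young). The young call was lost without ZT2, without ZT10 and without the 4 libraries of low Rora coverage (adjusted p = 0.0604, 0.0690 and 0.0580 by limma). The test of this difference did not pass (limma, unadjusted p = 0.0418, adjusted p = 0.9999), and 0 of the 14 genes did, with 1, Hlf itself, at an unadjusted p under 0.05.

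Of 15 tested liver genes regulated through ROR or REV-ERB elements (16 listed, with Cry1 and Nfil3 also counted above), 7 were called rhythmic in old and 8 in young, with median amplitudes of 1.12 in old and 1.57 in young. Over all genes, 8.97% were called in old and 10.8% in young, with median amplitudes of 0.39 in old and 0.44 in young. Cry1, Elovl3 and Avpr1a were among the 4 with the smallest p at both ages. Avpr1a, a vasopressin receptor, peaked at ZT23.57 in old and ZT23.61 in young with amplitudes of 2.04 ± 0.18 (SE) in old and 2.02 ± 0.18 in young. Elovl3, an elongase of very long chain fatty acids that REV-ERBα represses in mouse liver, was in old at 707 and 678 scaled TPM at ZT2, 176 and 183 at ZT6, 36.4 and 27.6 at ZT10, 25.8 and 22.7 at ZT14, 380 and 439 at ZT18, and 705 and 979 at ZT22. In young it was at 804 and 665 scaled TPM at ZT2, 285 and 314 at ZT6, 61.2 and 82.3 at ZT10, 22.4 and 22.2 at ZT14, 220 and 214 at ZT18, and 541 and 645 at ZT22. The old libraries were thus below the young ones at ZT6 and ZT10 and above them at ZT14, ZT18 and ZT22. Of all genes, 14.1% stood below in this way at ZT6 and 19.8% at ZT10. The shares that stood above were 15.1% at ZT14, 13.5% at ZT18 and 11% at ZT22. At ZT14 the difference of Elovl3 was only 0.11 ± 0.19 (SE) on the log2 scale (limma, unadjusted p = 0.560). At ZT10 the difference of -1.15 ± 0.19 (SE) on the log2 scale passed the threshold (limma, adjusted p = 0.0186), a call that was lost without young ZT10 replicate 2 (adjusted p = 0.225) or old ZT10 replicate 2 (adjusted p = 0.144). Nfil3, a bZIP repressor at D-boxes, had the next smallest p of the list at ZT10, with a difference of 0.93 ± 0.20 (SE), of the opposite sign, that missed the threshold (limma, unadjusted p = 0.000314, adjusted p = 0.0525). With quantile normalization, the filter at 5 TPM, the replicate block or scaled coverage, 2 genes of the list passed at ZT10 in place of 1. The peak of Elovl3 fell at ZT23.48 in old and ZT0.78 in young, a difference of -1.30 h (95% interval -2.26 to -0.33). The test of its rhythm difference, adjusted over all genes, did not pass (limma, unadjusted p = 0.0200, adjusted p = 0.9999). Over the day 1 of the 15 was called higher in old and 0 lower, against 1.14% and 0.499% of all genes. The 1 called higher was Cidec, a lipid droplet protein, at 3.14 ± 1.76 scaled TPM in old and 0.787 ± 0.687 in young (SD, n = 12 each). The log2 difference was 1.47 ± 0.28 SE (limma, adjusted p = 0.00974), a call lost without ZT2 (adjusted p = 0.0645) or ZT14 (adjusted p = 0.0534). Its mean in young lay below the limit of 1 TPM for testing, so it was tested only because of its level in old. No conclusion on age is drawn from this call.

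Genes of the proteins that work with the members or modify them were followed in 3 lists. Over all genes, 8.97% were called rhythmic in old and 10.8% in young. Of the 12234 genes, 2790 in old and 3068 in young had an unadjusted p under 0.05 in this limma F test. In lists this short, counts of 0 lie near those shares, so they are not read as a trait of these genes. Of the REV-ERB co-repressor complex, 0 of 6 tested genes were called rhythmic in old and 0 in young by limma, and 1 in old and 2 in young had an unadjusted p under 0.05. Of the co-activators and chromatin partners of CLOCK, BMAL1 and ROR, 0 of 9 tested genes were called in old and 0 in young, with Kat2b, a histone acetyltransferase, having the smallest p (limma, adjusted p = 0.239 in old and 0.0552 in young) and 0 in old and 2 in young at an unadjusted p under 0.05. Of 12 kinases and ubiquitin ligases that act on clock proteins, 0 were called in old and 0 in young by limma, and 0 in old and 3 in young had an unadjusted p under 0.05. In these 3 lists 0 genes passed for an age difference over the day by limma, and 0 had an unadjusted p under 0.05. Of all 12234 genes, 1.14% were called higher in old and 0.499% lower, and 727 higher and 700 lower had an unadjusted p under 0.05.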

How the data were processed

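Per the labels, liver RNA was selected with oligo-dT and read singly over 50 bases, keeping the strand. Per the submitters' processing notes, HISAT2, StringTie and GRCm38 were used, with no versions given. The deposited files give, per gene, coverage (mean read coverage per base, unscaled for depth), FPKM and TPM, all made by the authors. TPM of entries with the same identifier were summed and divided by median-of-ratios factors over 13270 genes above 0 in all 24 libraries. These factors averaged 1.05 ± 0.108 in old and 0.973 ± 0.105 in young (SD, n = 12 each). For Arntl, Npas2 and Nr1d1, steps between low coverage values gave whole reads within 0.03 in every library under 40 reads (9, 11 and 7 libraries).

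Values of log2(scaled TPM + 0.5) were fitted in R 4.3.3 by limma 3.58.1, moderated with a trend on intensity. A model of 12 age and time groups had 12 residual degrees of freedom, and a model with an intercept, cosine and sine of 24 h per age had 18. The residual of the cosine model also holds departures of the levels over time from a cosine. Npas2, below the filter, was tested by permutation. The steps were tested on simulated data. Tables and plots were made with matplotlib 3.10.9, numpy 2.4.6 and pandas 2.3.3 under Python 3.11.15.

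The members, gene lists and several alternatives were chosen with earlier results of these data known. The 6 members and their relatives were to be named whatever their values, list genes up to 4 by smallest p in a test, and the 3 genes of highest Pearson r with each member. Dbp, Hlf and Cidec are named under this rule, and some genes it would name are not reported here. Alternatives were other scalings, pseudocounts and filters, a replicate block, no intensity trend, and leaving out libraries or times. Promoter sequences came from RefSeq (GRCm38.p6), and transcripts from GENCODE M21. Cell type marker lists other than those of hepatocytes, plasma cells and pancreatic acinar cells were neutrophils (summed level 2.63 to 121 TPM in old and 2.27 to 22.5 in young), Kupffer cells (183 to 541 in old and 192 to 260 in young), sinusoidal endothelium (102 to 155 in old and 110 to 157 in young), cholangiocytes (1.54 to 5.27 in old and 1.08 to 4.84 in young), T and NK cells (0.306 to 7.94 in old and 1.01 to 3.03 in young) and adipocytes (0 to 0.855 in old and 0 to 0.840 in young).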

Additional observations from a re-analysis of the deposited data

How the results depend on the processing

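Across the alternatives, the rhythms of Arntl, Nr1d1 and Nr1d2 passed the threshold at both ages in every fit by limma, and no age difference or rhythm difference of a member passed in any. Counts of members past the threshold kept within 1.5 times in 539 recomputed counts, with 1 exception, variation over times in young without ZT18, with 5 members (Npas2 and Clock added). The age differences over the day (adjusted p of 0.573 or more by limma in the 5 members fitted) changed sign as follows, and the cause was not tested. With the deposited TPM unscaled they were 0.045 for Arntl, 0.067 for Clock and 0.0044 for Npas2, and with the deposited FPKM 0.0028 for Arntl, 0.028 for Clock and 0.0021 for Npas2. Without both old ZT14 replicate 1 and young ZT18 replicate 2 they were 0.11 for Arntl, 0.045 for Clock and 0.00079 for Npas2. Without ZT2 they were -0.11 for Nr1d1 and -0.0082 for Nr1d2, without ZT6 0.098 for Arntl and 0.049 for Npas2, without ZT10 0.031 for Clock, without ZT14 -0.042 for Rora, and without ZT18 -0.020 for Rora and -0.061 for Nr1d1. With scaled coverage in place of TPM, an alternative chosen after seeing the data, that of Rora was -0.17. Without single libraries, or that pair, they ranged from -0.15 to 0.11 for Arntl, -0.10 to 0.045 for Clock, -0.017 to 0.13 for Rora, -0.081 to 0.17 for Nr1d1 and -0.069 to 0.035 for Npas2.

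Calls of Clock for variation over times in old were lost with the deposited TPM unscaled (limma, adjusted p = 0.124), without ZT10 (0.236) and without the 4 libraries of low Rora coverage (0.0959), also chosen after seeing the data. The fitted peak difference of Arntl was -0.86 h without the 2 libraries above and 0.08 h without ZT6. Rhythm calls of Thra in old were lost with the deposited TPM unscaled, without ZT2, without ZT10 and without the 4 libraries, and in young without ZT14 or ZT22 (limma, adjusted p between 0.0526 and 0.237). Each of the 3 lists of partner and modifying genes had 1 rhythmic gene in young under the replicate block, the co-repressor list also 1 in old, and the other two lists also had 1 in young with the deposited FPKM and with scaled coverage.

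Replicate numbers were not treated as pairs. Deviations from group means of same-numbered libraries correlated over 0.1 in 52 of 66 pairs of groups. With a replicate block the members called were as without it, except that Clock was also called for variation over times in young (limma, adjusted p = 0.00142). Over all genes the replicate block called 352 for age over the day against 200 without it, 2 at ZT2 and at ZT6 against 0, 140 at ZT10 against 65, 8 at ZT14 against 5, 5 at ZT18 against 3, and for variation over times 1215 in old against 692 and 1529 in young against 840. A filter at 5 TPM left 114 genes for age over the day, unscaled TPM 514 for variation in young, and leaving out the 4 libraries 22 for age at ZT10, 342 for variation in old and 626 for rhythm in old, against 1097. With 2 libraries per age and time, differences may be missed, and the smallest that could be detected was not computed. The intervals given hold only for the cosine fit to these libraries with the pseudocount of 0.5. If replicates were technical, the intervals do not cover the spread between animals. For Arntl and Nr1d1, with lowest levels near 0, the pseudocount bounds the amplitudes, so their intervals do not limit the amplitude difference of the transcripts themselves. A count of 0 leaves a level up to the 3-read limit possible, and differences between levels under that limit are not interpreted.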
